A study of Mus musculus with 5 samples.

Results

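Argonaute (Ago) binding in the 5′UTR, the stretch of an mRNA before its start codon, was examined in mouse liver at 5 stages of development. The members were the entries of the miRNA-target tables whose region was listed as 5′UTR and as neither CDS, the coding sequence, nor 3′UTR. They were 70428 of 3010567 distinct entries, and they lay in 13973 of 572237 clusters, a cluster being a run of overlapping Ago-bound reads with at least 1 seed match. Livers of C57BL/6 mice, C57BL/6J by the methods, of the embryonic stages e12.5, e15.5 and e18.5, counted in days, of postnatal day 7 (P7) and of adults were crosslinked with UV light, and RNA bound to Ago was sequenced by HITS-CLIP. Each stage was represented by 1 table, called a library below, without labelled replicates. Biological replicates of the Ago2 experiment are mentioned in the methods, and the study's supplement lists a replicate of e18.5. Whether the 2 lists found in each embryonic table are such replicates is not known. Antibodies to Ago2 were used at every stage, and an antibody to Ago1 was added at P7 and in adult liver, so the antibody and the postnatal stages cannot be told apart. The labels name no transgene and no treatment.

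Ago proteins carry miRNAs, and bases 2 to 8 of the miRNA, the seed, pair with the target mRNA. Sites in the 3′UTR, downstream of the translating ribosome, are the best known, while the 5′UTR is scanned by the small ribosomal subunit on its way to the start codon and holds control elements such as upstream open reading frames and the iron-responsive elements of ferritin and ferroportin mRNAs. In the developing liver, hepatocytes mature next to blood-forming cells, which leave the organ around birth. A listed site is a seed match inside an Ago-bound cluster, and most clusters held seed matches of several miRNAs, so an entry does not say which miRNA guided Ago there.

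The sites below carried much of what follows. The first set shows sites of 9 genes named in the results, on the mm10 build (GRCm38), 5′ to 3′ along the mRNA. All sites of a cluster share its reads, so for each of the first 6 genes the site shown is that of the most abundant miRNA in the 5′UTR cluster with the most reads, among targets of at least 22 nt. The other 3 are miR-122-5p sites. Capitals mark the bases that pair with the miRNA seed and, in 7mer-A1 and 8mer sites, the A that follows them.
Igf2, miR-16-5p, 8mer at chr7:142659329-142659350, minus strand, 5′UTR and intron: gtccgccacctcgcTGCTGCTA
Hist1h3g, miR-451a, 7mer-A1 at chr13:23535418-23535439, plus strand, 5′UTR: atctcacttttccctACGGTTA
Hbb-bt, miR-421-3p, 6mer at chr7:103813893-103813914, minus strand, 5′UTR: cttctgattctgttgTGTTGAc
Trf, miR-744-5p, 6mer at chr9:103230241-103230262, minus strand, 5′UTR: gggtcggtctgtactCCCCGCt
Ahsg, miR-16-5p, 6mer at chr16:22892053-22892074, plus strand, 5′UTR: aagctgattatccggGCTGCTc
Apoc3, miR-22-3p, 7mer-A1 at chr9:46235269-46235290, minus strand, 5′UTR and intron: gttttatccctagaaGCAGCTA
Haao, miR-122-5p, 7mer-A1 at chr17:83846772-83846793, minus strand, 5′UTR: ggtcgcagatcgcatCACTCCA
Mavs, miR-122-5p, 7mer-A1 at chr2:131238758-131238779, plus strand, 5′UTR: tgccagggtccgagtCACTCCA
Oat, miR-122-5p, 6mer at chr7:132570119-132570140, minus strand, 5′UTR and intron: gtctgtctgcactccCACTCCt
A region named beside the 5′UTR is that of another transcript at the same place.

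The mature miRNAs that matter most below are shown from RefSeq (GRCm38.p6), with the seed in capitals. The miR-15/16 group shares 1 seed, and miR-103-3p and miR-107-3p share another that overlaps it shifted by 1 base.
miR-16-5p: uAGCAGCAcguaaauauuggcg
miR-15a-5p: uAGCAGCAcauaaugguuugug
miR-15b-5p: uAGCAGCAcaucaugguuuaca
miR-195a-5p: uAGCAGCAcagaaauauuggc
miR-322-5p: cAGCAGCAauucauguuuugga
miR-103-3p: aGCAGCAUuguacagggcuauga
miR-107-3p: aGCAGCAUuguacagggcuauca
miR-744-5p: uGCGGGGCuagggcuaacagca
let-7c-5p: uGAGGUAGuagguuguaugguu
miR-30a-5p: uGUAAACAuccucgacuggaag
miR-144-3p: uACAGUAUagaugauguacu
miR-451a: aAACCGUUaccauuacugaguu
The results also turn on miR-122-5p, the leading miRNA of hepatocytes.

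The summed reads of all clusters ran from 13008703 at e18.5 to 44867326 at e12.5, and those of clusters in mRNA regions from 3351344 to 10449276. The read number of a cluster was taken as the highest number of reads within it, and it is not scaled to depth unless given in rpm below. The column is headed by the miRNA target in the e12.5 table and by the peak in the others. It is not known whether both headings mean the same, which touches every comparison of reads with e12.5. Clusters of Alb, which encodes albumin, held 1467, 3950, 8403, 18596 and 46171 reads per 1000000 (rpm) of mRNA cluster reads from e12.5 to adult. Those of Hba-a1, which encodes alpha globin, held 127931, 125108, 149717, 79367 and 5560. Umod of the kidney and Alpi of the intestine were listed at 0 in every library. In these whole-tissue libraries, fewer cells of a type and less of an RNA per cell cannot be told apart.

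The 5′UTR held a small part of the clusters of every library. From e12.5 to adult there were 4216, 1752, 2133, 3442 and 2430 5′UTR clusters. They made up 4.43%, 3.89%, 5.02%, 4.30% and 4.54% of the mRNA clusters in that order. The adult library thus had fewer 5′UTR clusters than the e12.5 library but a like share of them. For comparison, all libraries together held 101193 clusters in the 3′UTR and 184730 in the CDS, chosen by the matching rule. Between 51.0% and 56.2% of the 5′UTR entries of a library were annotated as 5′UTR alone, and the others lay also in an exon or intron of another transcript. Between 0.612% and 1.29% of the positions fell into coding sequence of the GENCODE M21 annotation. Between 6 and 17 5′UTR clusters per library overlapped a small RNA gene, and leaving them out moved no count by over 1.5 times.

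Most 5′UTR sites and most genes appeared in a single library. Of 38299 distinct seed-match positions, 80.8% were listed in 1 library and 205, or 0.535%, in all 5. The 5′UTR clusters belonged to 2999, 1409, 1707, 2596 and 1881 genes from e12.5 to adult. Over all libraries there were 5709 genes, of which 3031 (53.1%) had 5′UTR clusters in 1 library, 1329 in 2, 716 in 3, 410 in 4 and 223 (3.91%) in 5. These counts of positions and genes were not made for the other regions or for all regions together. They therefore do not tell whether the 5′UTR differs in this. A table lists only clusters that met the cut-off of the authors, so a site missing from a library may lie below it. Most of these genes were bound elsewhere too. Of the genes with 5′UTR clusters, 78.7%, 65.9%, 63.8%, 75.3% and 65.4% also had 3′UTR clusters from e12.5 to adult, and 81.7% to 91.8% also had CDS clusters. Between 130 and 193 genes per library had clusters in the 5′UTR and in neither other region. The 5′UTR gave a median of 8.90%, 16.2%, 20.8%, 11.2% and 14.4% of a gene's reads in mRNA regions.

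The 5′UTR clusters were richer in GC than those of the 3′UTR, had an 8mer less often and were predicted to pair more strongly in all 5 libraries. Each feature was compared, within a library, between clusters of the 5′UTR and clusters of the 3′UTR or CDS by the two-sided Fisher's exact test, with Benjamini-Hochberg adjustment over 50 tests, of which 46 were called. Only clusters of a single region were used, 1593 to 3854 of the 5′UTR per library. These tests compare the clusters of 1 library and not stages, and the libraries share loci, so a result seen in 5 libraries is not 5 independent results. An 8mer, the longest seed match, was present in 19.5%, 16.5%, 17.0%, 18.1% and 17.9% of 5′UTR clusters from e12.5 to adult. The 3′UTR clusters had an 8mer in 28.9%, 25.6%, 26.2%, 29.5% and 25.5%, and the 5′UTR share was lower in 5 of 5 libraries. The median log2 odds ratio was −0.79 against the 3′UTR and −0.65 against the CDS. Among distinct 5′UTR sites, 57.9% to 58.7% were 6mers and 5.13% to 5.98% 8mers. In the 3′UTR, 8mers were 7.40% to 8.50% of the sites.

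A mean conservation score of at least 0.5, on a scale from 0 to 1, was reached by 33.1%, 32.5%, 30.1%, 30.3% and 25.8% of 5′UTR clusters from e12.5 to adult. The 3′UTR clusters reached it in 38.3%, 43.9%, 39.4%, 35.3% and 34.7%. The 5′UTR share was called lower in 5 of 5 libraries, with a median log2 odds ratio of −0.59, but with every entry that names the 5′UTR this was −0.024 with 2 libraries called. The coding clusters reached it in 83.3% to 87.4%, far above both untranslated regions. The median score of a 5′UTR cluster was 0.140 in the e12.5 and 0.078 in the adult library. The 50 nt around the middle of a 5′UTR cluster had a median GC content of 60% to 62%, against 44% to 48% in the 3′UTR and 50% to 52% in the CDS. The GC content lay above the median of the 3 regions in 81.1%, 79.2%, 76.0%, 75.6% and 74.0% of 5′UTR clusters and in 29.4% to 36.1% of 3′UTR clusters. The predicted free energy of the duplex had a median of −12.0, −11.4, −11.7, −11.8 and −11.9 in 5′UTR clusters, where a lower value means stronger pairing. It lay below the median of the 3 regions in 64.3% to 68.6% of 5′UTR clusters and 42.7% to 45.1% of 3′UTR clusters. GC content and energy moved together here, and the part of base composition in the energy difference was not tested.

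Read numbers set the 5′UTR apart less clearly. The median 5′UTR cluster had 28, 35, 29, 14 and 21 reads from e12.5 to adult, and the median 3′UTR cluster 34, 37, 26, 15 and 21. The share of clusters with reads above the median was lower in the 5′UTR than in the 3′UTR at e12.5 (41.5% against 50.4%) and P7 (41.9% against 48.5%). It did not pass the test at e15.5 (48.0% against 50.3%, adjusted p = 0.084 by Fisher's exact test), e18.5 (52.8% against 50.4%, adjusted p = 0.0544) or in adult liver (42.0% against 44.3%, adjusted p = 0.0516). Against the CDS, the share was lower at e12.5, P7 and in adult liver and higher at e18.5, where 52.8% of 5′UTR and 48.7% of CDS clusters lay above the median.

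**Figure D1:**
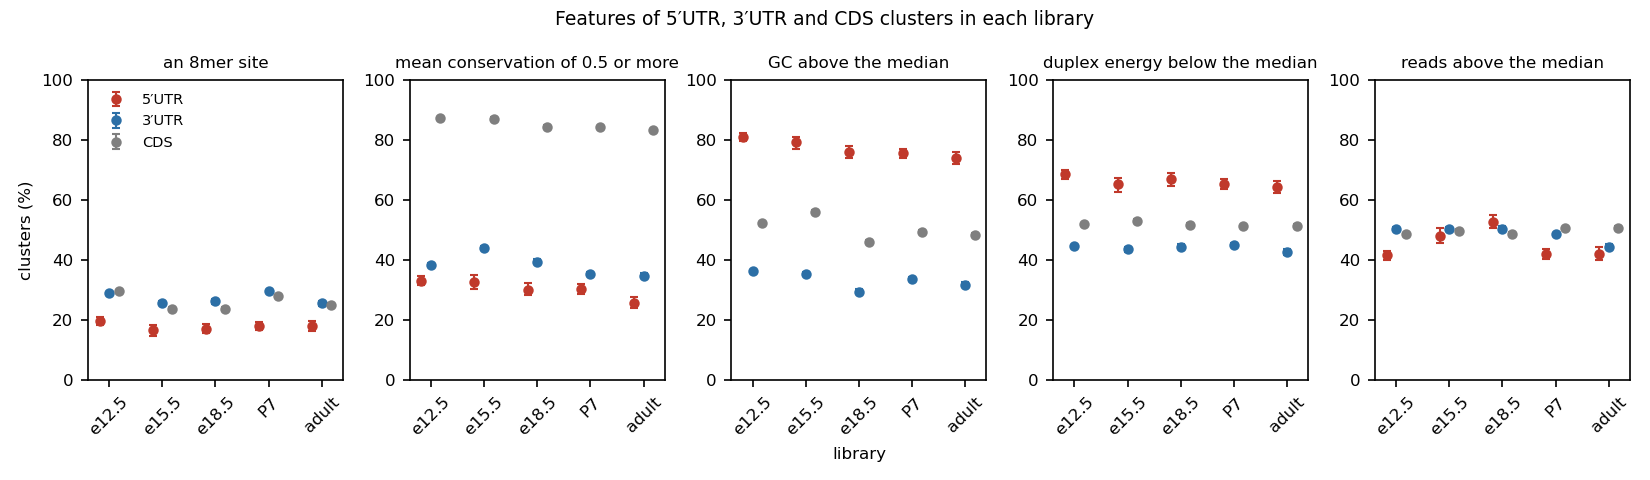
Share of clusters (%, y axis) with each of 5 features, by library (x axis), for clusters of the 5′UTR (red), 3′UTR (blue) and CDS (grey), with Wilson 95% intervals that cover counting error only. The 5′UTR points lie lowest for 8mers and conservation and highest for GC content and duplex energy in all 5 libraries, at 74.0% to 81.1% for GC.

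The 5′UTR sites lay close to the start codon. Between 96.3% and 97.8% of the positions could be placed on the first coding transcript of their gene in GENCODE M21. Of these, 32.7%, 38.4%, 35.2%, 37.6% and 42.6% lay within 50 nt of the start codon from e12.5 to adult. The same stretch held 14.3% to 15.1% of the 5′UTR bases of these transcripts in the libraries up to P7 and 15.49% in the adult one. Sites thus had a share above that of the bases in every library, highest in adult liver. The first 50 nt after the transcript start held 12.1% to 13.4% of the positions. The median distance to the start codon was 91, 76.5, 84, 77 and 67 nt, in 5′UTRs with a median length of 239 to 267.5 nt. Positions of 1 cluster lie in the same run of reads, and these shares are descriptions without a test.

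**Figure D2:**
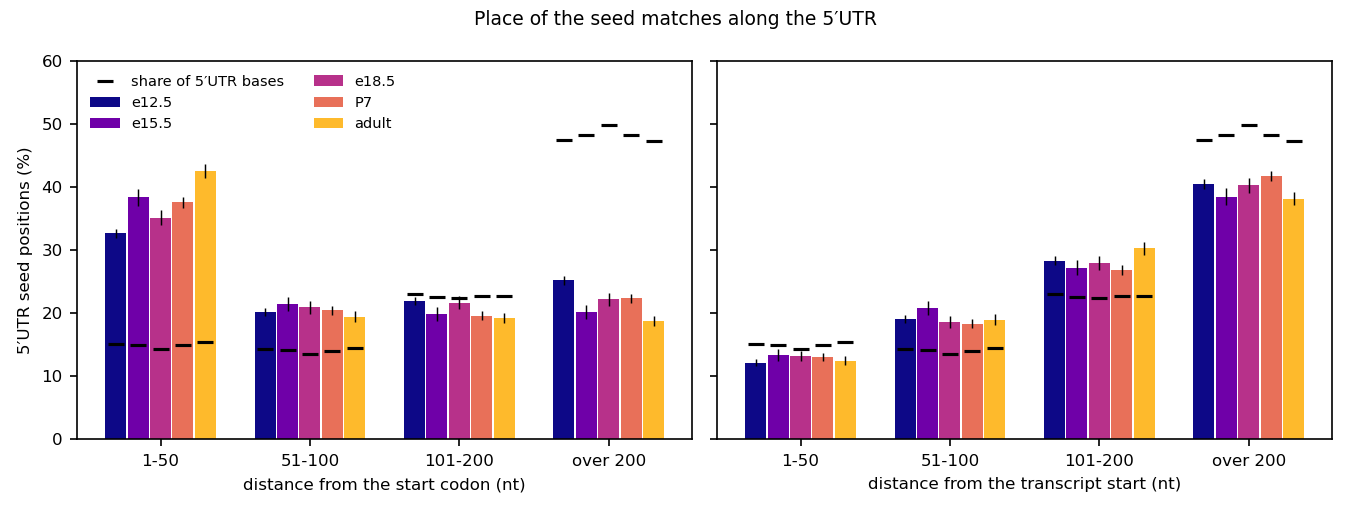
Share of 5′UTR seed positions (%, bars with Wilson 95% intervals) in 4 ranges of distance in nt from the start codon (left) and from the transcript start (right), by library, with the share of available 5′UTR bases as black marks. The bars of the 50 nt next to the start codon stand at 32.7% to 42.6%, above marks at 14.3% to 15.49%, and those over 200 nt away stand below their marks.

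Sites in the 5′UTR had seeds richer in GC than sites in the 3′UTR. The 6 bases of a seed match held a mean of 3.73, 3.52, 3.68, 3.71 and 3.74 G or C in 5′UTR sites, against 3.16, 2.96, 3.08, 3.24 and 3.25 in 3′UTR sites, from e12.5 to adult. A CpG in the seed was found in 13.9% to 16.0% of 5′UTR sites, 2.86% to 3.13% of 3′UTR sites and 5.92% to 6.44% of CDS sites. Sites of the 100 most abundant miRNAs of a library made up 12.2%, 17.4%, 16.0%, 10.3% and 15.2% of 5′UTR sites. These shares were below those of 3′UTR sites, 13.8%, 20.3%, 19.3%, 14.8% and 19.2%, and of CDS sites, 12.02% to 18.4%. Each seed family with at least 20 expected 5′UTR clusters was then compared between 5′UTR and 3′UTR clusters, a test chosen after the values had been seen. It used the clusters of a single region, as above, and the expected number came from both regions pooled. At e12.5, 178 of 366 families (48.6%) were called, of which 35 had a higher share in the 5′UTR and 143 a lower one. At e15.5, 37 of 77 (48.1%) were called, 5 of them higher. At e18.5 these were 53 of 106 (50%) with 15 higher, at P7 107 of 276 (38.8%) with 24 higher, and in adult liver 46 of 145 (31.7%) with 17 higher. The families that were higher in the 5′UTR had a mean of 4.40 to 4.83 G or C among the 7 bases of the seed, and those that were lower had 2.59 to 3.00. Because families frequent in the 5′UTR alone could pass this minimum, it was also taken from the 3′UTR share only. Of the 35, 5, 15, 24 and 17 higher families, 5, 0, 2, 0 and 1 were then not tested. The called families were 181 of 370 (48.9%), 40 of 82 (48.8%), 58 of 110 (52.7%), 115 of 289 (39.8%) and 45 of 147 (30.6%), and the mean G or C was 4.46 to 4.83 for the higher and 2.60 to 3.00 for the lower ones. Seed GC content moved with the direction of the call in all 5 libraries under both minimums. The 5′UTR clusters were themselves richer in GC, and the part of base composition in these seed differences was not tested.

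Of 51 families tested in every library, 2 were higher in the 5′UTR and 18 lower in all 5, and none was called in opposite directions. The 2 higher families were those of miR-16-5p, with a median log2 odds ratio of 0.74, and miR-503-5p, with 0.66, whose seeds differ in the last base. Among the 18 lower families were miR-144-3p of red blood cells (−1.92), miR-30a-5p (−1.49), miR-128-3p (−1.43) and miR-26a-5p (−1.28).

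**Figure D3:**
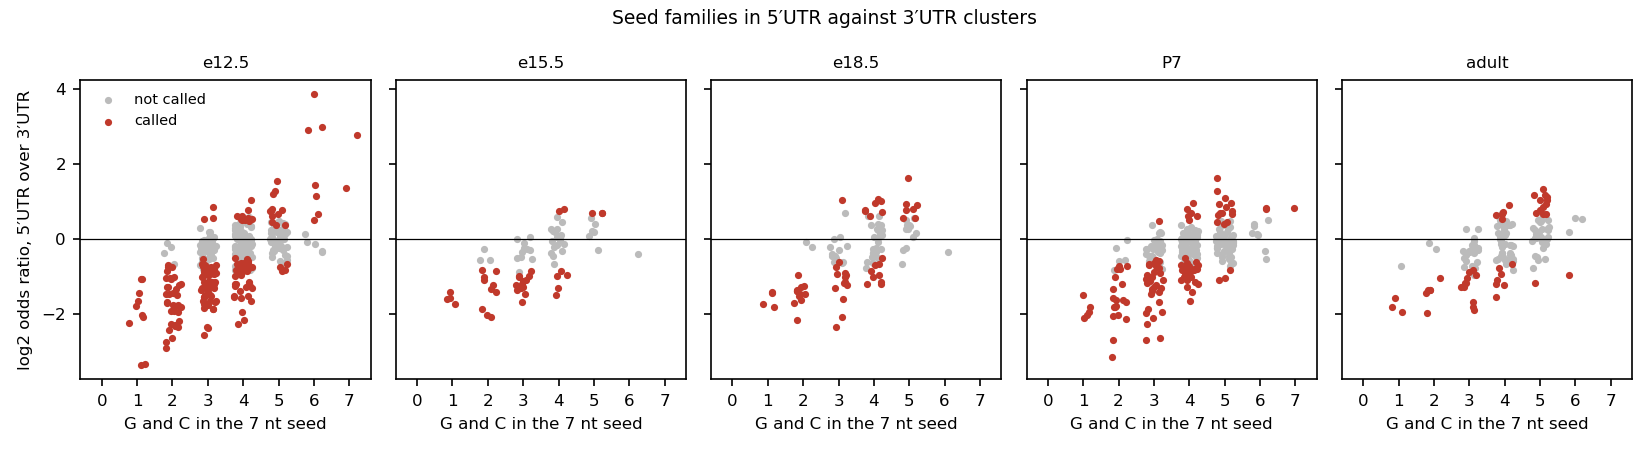
Log2 odds ratio of each seed family in 5′UTR over 3′UTR clusters (y axis) against the number of G and C in its 7 nt seed (x axis, points spread sideways), 1 panel per library, with called families in red and others in grey. Families with 1 to 3 G or C lie mostly below 0, and the called families above 0 have a mean of 4.40 to 4.83.

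The shares of single miRNAs in 5′UTR clusters differed in how they moved between libraries. Shares are given over all clusters of a region, while the tests between regions are those of the seed families on clusters of a single region, where the shares differ somewhat. The share of 5′UTR clusters with a miR-122-5p site was 1.33%, 1.31%, 3.09%, 3.11% and 4.53% from e12.5 to adult, from 56, 23, 66, 107 and 110 clusters. In the 3′UTR the shares were 0.998%, 1.22%, 2.14%, 2.66% and 3.73%. Both regions thus had their lowest shares in the 2 youngest libraries and their highest in adult liver. On clusters of a single region, the miR-122-5p family was higher in the 5′UTR at e12.5 (1.40% against 0.981%, adjusted p = 0.0382 by Fisher's exact test) and e18.5 (3.21% against 2.14%, adjusted p = 0.0126). It was not called at P7 (3.26% against 2.65%, adjusted p = 0.117 by Fisher's exact test) or in adult liver (4.87% against 3.75%, adjusted p = 0.0525). At e15.5 it had fewer than 20 expected clusters of a single region and was not tested.

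The miR-16-5p share was 4.65%, 5.08%, 6.19%, 4.76% and 4.98% in the 5′UTR and 3.03%, 3.32%, 3.43%, 3.53% and 3.28% in the 3′UTR. On clusters of a single region the family was higher in the 5′UTR in each library, from 4.95% against 3.56% at P7 to 6.41% against 3.43% at e18.5, with adjusted p from 1.27e-08 to 0.00126 by Fisher's exact test. The miR-103-3p share, 3.46% to 4.64% in the 5′UTR and 2.55% to 3.13% in the 3′UTR, was called higher at e12.5 and e18.5. The miR-744-5p share was 2.09%, 1.66%, 2.81%, 1.54% and 2.39% in the 5′UTR and 0.174% to 0.289% in the 3′UTR. This family had enough expected clusters for the test in none of the libraries.

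The opposite pattern was seen for let-7c-5p, a miRNA of mature tissue. Its 5′UTR share was 0.403%, 0.514%, 0.563%, 0.872% and 1.32%, with 0.738% to 2.32% in the 3′UTR, and it was called lower in the 5′UTR in the 3 libraries where it could be tested (e12.5, P7 and adult). The miR-144-3p share was 0.640%, 1.08%, 0.516%, 0.407% and 0.741% in the 5′UTR against 1.98% to 3.88% in the 3′UTR. It was highest at e15.5 in both regions. The share of miR-451a, made from the same precursor transcript as miR-144 in red cell precursors, was 1.23%, 1.77%, 0.891%, 0.407% and 0.206% in the 5′UTR. It was lowest in adult liver, where 5 clusters held a site, and was higher than the 3′UTR share of 0.732% in the library where it could be tested, e12.5 (adjusted p = 0.00168 by Fisher's exact test).

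**Figure D4:**
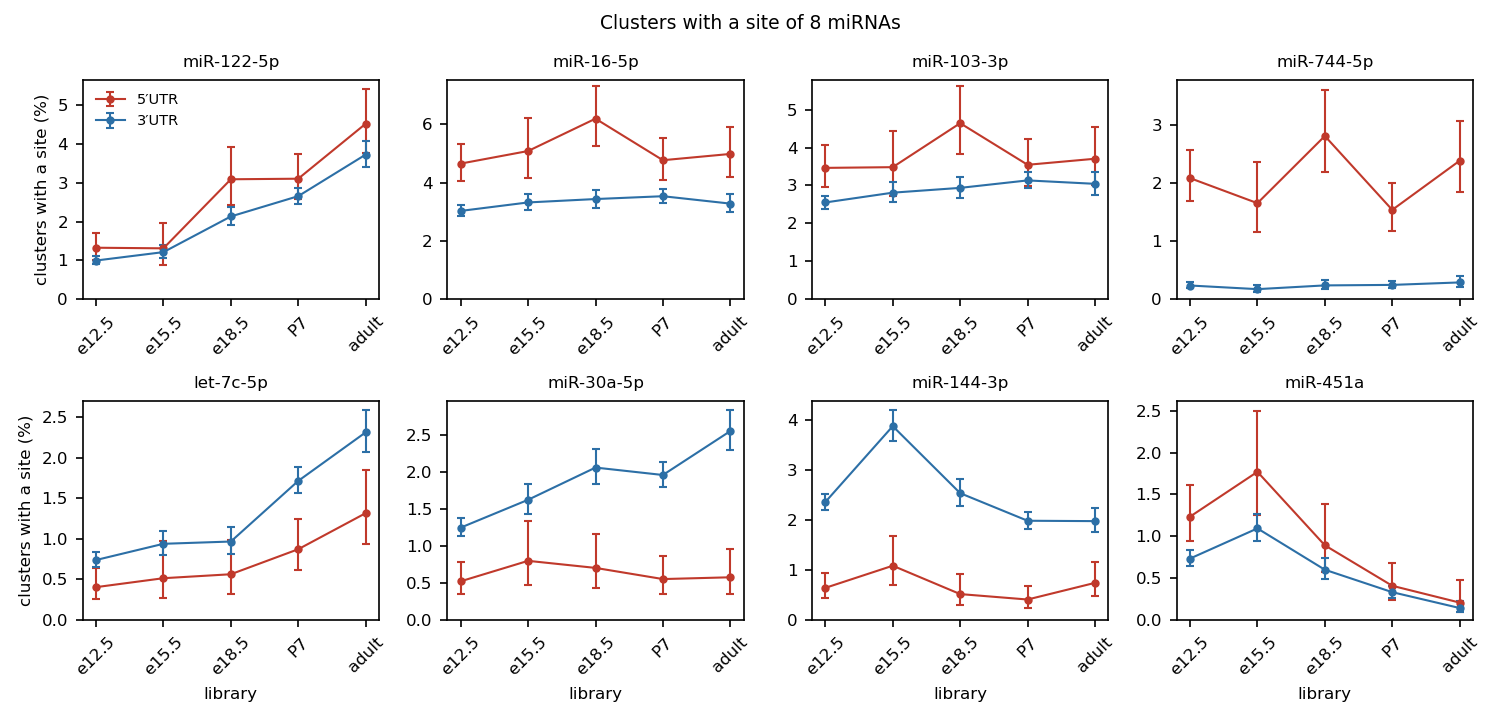
Share of clusters with a site of each of 8 miRNAs (%, y axis) by library (x axis), in the 5′UTR (red) and 3′UTR (blue), with Wilson 95% intervals. The miR-122-5p share goes from 1.33% at e12.5 to 4.53% in adult liver in the 5′UTR, and the 5′UTR lies above the 3′UTR for miR-16-5p and miR-744-5p and below it for let-7c-5p, miR-30a-5p and miR-144-3p.

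Between the e12.5 and the adult library, 9 of 115 seed families in 5′UTR clusters (7.83%) differed by Fisher's exact test with Benjamini-Hochberg adjustment, 7 higher and 2 lower in adult liver. Only families with at least 20 clusters in both libraries were tested, which leaves out those that became scarce. For miR-451a, 52 clusters (1.23%) at e12.5 and 5 (0.206%) in adult liver held a site. The balance of higher and lower families therefore holds for the tested ones only. The test compares the clusters of 2 libraries, which are not replicates of a stage, so these counts describe the libraries and give no test of the stages. miR-122-5p had the largest log2 odds ratio of the 115, 1.82, and ratios from 1.73 to 1.92 in 8 alternative settings on the same 2 libraries. The seed of miR-3068-5p, with a log2 odds ratio of 1.79, shares 5 bases with that of miR-122-5p, and 40 of its 74 adult clusters also held a miR-122-5p site. The others higher in adult liver were miR-5114 (1.13), miR-7688-5p (0.99), miR-1964-5p (0.91), miR-28c (0.86) and miR-28a-5p (0.77). From e12.5 to adult, 83, 41, 78, 0 and 102 5′UTR clusters held a miR-5114 site. For miR-1964-5p these were 58, 1, 32, 47 and 62. Whether a scarce miRNA was listed may thus differ between libraries, and its part in these differences was not tested. The families of miR-8112 (−0.86) and miR-1982-3p (−1.05) were lower. Most of these calls were lost in some of the alternative settings that could test them, since miR-28c was called in 3 of 7, miR-28a-5p in 4 of 7, miR-8112 in 5 of 8, miR-1982-3p in 2 of 3 and miR-5114 and miR-7688-5p in 6 of 7. miR-3068-5p and miR-1964-5p were called in each of the 5 and 7 settings that could test them. Each of these families other than miR-122-5p had a main miRNA below 0.02% of the miRNA reads of every library.

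The miR-122-5p sites lay in the 5′UTR clusters of 192 genes, 108 of them in 1 library and 9 in all 5. Of all 5709 genes with 5′UTR clusters, 53.1% had them in 1 library and 3.91% in all 5. The Haao site, in the gene of a tryptophan-degrading enzyme, had 55, 272, 469, 562 and 2330 reads from e12.5 to adult. The Mavs site, in the gene of an adaptor of antiviral signalling, had 351, 0, 901, 1778 and 1704 reads. Both were highest after birth. The Oat site, in the gene of ornithine aminotransferase, had 0, 211, 0, 126 and 5144 reads and was thus largely a site of the adult library. Slc23a2, a vitamin C transporter, had its site with 0, 222, 535, 1800 and 374 reads and peaked at P7. These 4 sites had conservation scores of 0.004, 0.052, 0 and 0.001, while the miR-122-5p site of Fcgrt, the neonatal Fc receptor, had 0.999 and 56, 5, 487, 66 and 446 reads. Not every such site was highest late. The miR-122-5p site of Ucp2, a mitochondrial carrier, had 1764, 1089, 345, 248 and 118 reads, the most in the 2 youngest libraries.

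Reads of each gene were summed over its 5′UTR clusters and compared as reads per 1000000 (rpm) of all cluster reads of the library. Among 791 genes with 5′UTR clusters at both e12.5 and adult, 140 (17.7%) were 4-fold or more higher and 124 (15.7%) 4-fold or more lower in adult liver, with a median log2 ratio of 0.18. On the scale of rpm of mRNA cluster reads, the median was 0.97 and the counts were 241 (30.5%) and 56 (7.08%). The scaling therefore sets the balance of rises and falls, and 1 library per stage allows no test of a gene.

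Igf2 and the globin genes had the most 5′UTR reads at e12.5, and the globin genes at e15.5. The 5′UTR of Hbb-bt, a beta globin gene, had 23741, 16877, 3446, 493 and 113 reads from e12.5 to adult. That of Hba-a1 had 20532, 10915, 3816, 2124 and 398, most of them shared with the near-identical Hba-a2. In rpm of all cluster reads both were highest at e15.5, at 1022 and 661, and lower at each later stage, with log2 ratios of adult over e12.5 of −6.86 and −4.84. Hist1h3g, a replication-dependent histone gene, had 10544, 8911, 142, 36 and 0 reads in a cluster with a miR-451a site. Pabpc1, the poly(A)-binding protein, had 7104, 1538, 493, 190 and 41 reads and Atp2b4, a calcium pump of the plasma membrane, 3341, 1532, 530, 104 and 10. Igf2, the fetal growth factor, had 24610, 5680, 18035, 4470 and 0 reads and was among the 5 leading genes at e12.5, e18.5 and P7. Its 5′UTR gave 67.0%, 52.1%, 53.4% and 7.50% of the gene's reads in mRNA regions from e12.5 to P7. The 8mer site of the miR-15/16 group had 18570, 3240, 13856, 3615 and 0 reads. The 5′UTR of Hba-a1 gave 0.653% to 2.14% of the gene's reads.

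The most 5′UTR reads belonged to Ahsg at P7 and to Mup11 and Mup18 in adult liver. Ahsg (fetuin A) had 208, 1398, 2960, 5431 and 837 5′UTR reads and Alb 705, 137, 1357, 3838 and 2637. Both were highest at P7. Trf (transferrin), whose reads are also assigned to the overlapping Gm20425, had 1603, 910, 4349, 3411 and 2368, highest at e18.5, where only Igf2 had more. The adult 5′UTRs were led by Mup11, a major urinary protein whose reads were identical to those of Mup18, with 0, 0, 0, 5 and 7404 reads. Next came Apoc3, an apolipoprotein, with 0, 0, 312, 470 and 7170. They were followed by Oat, a mitochondrial enzyme, with 0, 211, 0, 126 and 5592, and Fabp1, the fatty acid-binding protein of liver, with 52, 14, 256, 869 and 5504. The log2 ratio of adult over e12.5 was 7.58 for Fabp1, 6.27 for Haao, 3.31 for Ctsl (cathepsin L), 3.17 for Apoa1 and 3.14 for Mavs. Reads of the Haao gene lay almost wholly in its 5′UTR, with 100%, 100%, 100%, 86.6% and 95.1% of its reads in mRNA regions. Those of Mavs went from 27.2% at e12.5 and 50.9% at e15.5 to 83.2%, 82.6% and 78.1% later. Alb had 0.708% to 6.11% of its reads there.

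**Figure D5:**
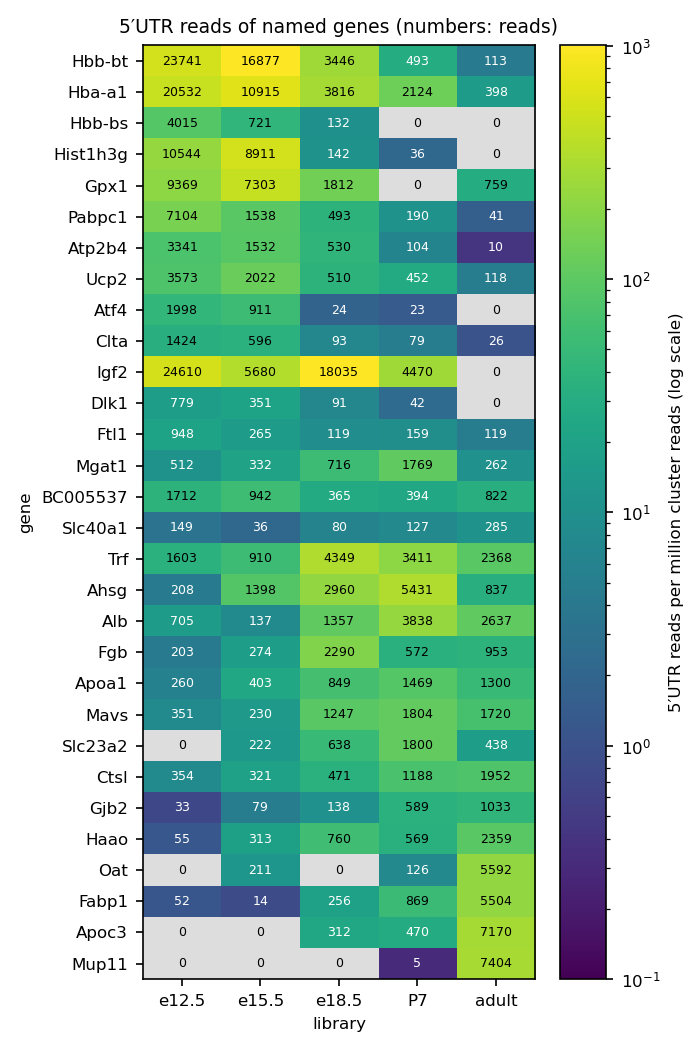
5′UTR reads per 1000000 (rpm) of all cluster reads (colour, log scale) of 30 genes named by the rule (rows) in each library (columns), with the reads written in each cell and grey cells where no 5′UTR cluster was listed. The globin genes at the top are highest at e12.5 or e15.5, and Apoc3 and Mup11 at the bottom are highest in adult liver, with 7170 and 7404 reads.

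The gene lists differed in how many members had a 5′UTR cluster. Among all genes with an mRNA cluster, the share was 25.4%, 14.7%, 17.2% and 21.5% from e12.5 to P7 and 1881 of 10167 genes in adult liver. Of the hepatocyte secreted proteins, 26 of 43, 23 of 43, 34 of 49, 42 of 49 and 41 of 48 had one, above that share in all 5 libraries. Of the 25 list members bound at both e12.5 and adult, 14 were 4-fold or more higher in adult liver and none lower, with a median log2 ratio of 2.14. Over all 791 genes the counts were 140 (17.7%) and 124 (15.7%), with a median of 0.18. In rpm of mRNA cluster reads, 21 of the 25 were higher and none lower, with a median of 2.93. Members of a gene family can share reads, as Serpina1a and Serpina1b had equal reads of 7, 0, 87 and 113 in the libraries up to P7 and 384 and 393 in adult liver. Genes without clusters in one of the libraries are left out of these counts, among them Afp, the albumin relative of fetal liver, with 811, 1358, 434, 290 and 0 reads. Of the erythroid genes, 21 of 26, 12 of 26, 9 of 26, 12 of 25 and 3 of 13 had one, and the 3 present in both libraries, Hbb-bt and the near-identical Hba-a1 and Hba-a2, were 4-fold or more lower, as were 15.7% of all genes in both. The part of mRNA level in these counts was not tested.

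Of 6 genes whose 5′UTR holds an iron-responsive element, 5 had 5′UTR clusters in some library, against 5709 of all 14348 genes (39.8%), and Ftl1, Fth1 and Slc40a1 had them in all 5. Ftl1, the ferritin light chain, had 948, 265, 119, 159 and 119 reads, and Fth1, the heavy chain, 360, 22, 157, 67 and 42. Slc40a1 (ferroportin) had 149, 36, 80, 127 and 285 reads and was highest in adult liver. In rpm of all cluster reads, Ftl1 and Fth1 were over 4-fold lower in adult liver than at e12.5, with log2 ratios of −2.14 and −2.25. Of all genes bound in both, 15.7% were 4-fold or more lower. In rpm of mRNA cluster reads, Ftl1 and Fth1 were less than 4-fold lower, while Slc40a1 was over 4-fold higher, with a log2 ratio of 2.58. On that scale 30.5% of all genes were 4-fold or more higher and 7.08% lower. Epas1, which encodes HIF-2 alpha, had 0, 0, 39, 91 and 550 reads. Alas2, the heme synthesis enzyme of red cell precursors, had 106 and 8 reads in the 2 youngest libraries and 0 later. The 5′UTR gave 29.8% to 70.9% of the Ftl1 reads but 0.403% to 4.10% of the Fth1 reads.

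Of the 12 genes under the control of upstream open reading frames with an mRNA cluster, 10 had a 5′UTR cluster in some library, against the same 39.8% of all genes. Atf4, the main factor of the integrated stress response, had 1998, 911, 24, 23 and 0 reads, and its relative Atf5 had 182, 18, 721, 386 and 227. In rpm of all cluster reads, Atf4 was highest at e15.5, at 55.1, and Atf5 at e18.5, at 55.4. Scaled to the reads of mRNA clusters alone, Atf4 was instead highest at e12.5, at 191 against 186 rpm at e15.5, and Atf5 again at e18.5, at 185 rpm. Cytosolic ribosomal proteins had 5′UTR clusters in 30 of 82, 15 of 77, 12 of 72, 12 of 70 and 11 of 63 genes, and other translation genes with a 5′ terminal pyrimidine tract in 9 of 16, 4 of 16, 5 of 16, 7 of 15 and 4 of 15. The ribosomal proteins lay near the share of all genes from e18.5 on. Growth and imprinted genes had one in 13 of 18, 9 of 19, 15 of 20, 15 of 20 and 10 of 15, and hepatocyte transcription factors in 5 of 15, 0 of 13, 7 of 18, 9 of 20 and 9 of 19. The share over all genes was 25.4%, 14.7%, 17.2% and 21.5% from e12.5 to P7 and 1881 of 10167 in adult liver. The growth and imprinted genes and the other translation genes lay above it in every library. The transcription factors lay above it in every library but e15.5.

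The 8mer sites of miRNAs among the 100 most abundant of a library lay at 470 distinct positions in the 5′UTR, of which 64 were listed in at least 3 libraries and 10 in all 5. Of all 38299 5′UTR positions, 3.60% were listed in 3 libraries, 1.77% in 4 and 0.535% in 5. Of the 10 8mer positions in all 5, 3 had a conservation score of at least 0.9. The pair below had the most reads of the 3, with capitals as above.
Slc20a2, miR-30 family at chr8:22535169-22535190, plus strand, 5′UTR: cagagcagactcacTGTTTACA
Mtfr1, miR-15/16 group at chr3:19200030-19200051, plus strand, 5′UTR: ctctatggaccatgTGCTGCTA
The site in Slc20a2, a phosphate transporter, had 282, 12, 116, 37 and 142 reads and a conservation score of 1. The site in Mtfr1, a regulator of mitochondrial fission, had 274, 84, 160, 10 and 20 reads and a score of 0.999. Another miR-30 8mer in all 5 libraries lay in Mgat1, an enzyme of N-glycan synthesis, with 237, 332, 531, 1690 and 262 reads and a score of 0. The 10 positions thus ran from no conservation to the top of the scale.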

How the data were processed

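Each table lists seed matches of miRNAs inside clusters, which the authors built from HITS-CLIP reads aligned by Bowtie after cleaning with the FASTX-Toolkit. Versions are not given in the sources used here. The submitters' processing notes name mm9 and mm10, and the target sequence of 2000 of 2000 entries checked per library matched GRCm38. The read number deposited by the authors is a signal, not scaled to depth. Conservation and duplex energy are deposited as a score each, and their methods are not given in the sources used here.

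Entries repeated for copies of a miRNA gene were counted once. The embryonic tables hold 2 lists, which were joined: overlapping clusters on a strand were counted once, and the reads of a gene or site were summed over both lists. Biological replicates that the methods mention, and the e18.5 replicate of the supplement, are not labelled in the data used here and were not analysed as such. Tests were two-sided Fisher's exact tests with Benjamini-Hochberg adjustment at 0.05, tested on simulated data. Shares have Wilson 95% intervals, which cover counting error only. Families needed 20 clusters in both libraries, or 20 expected 5′UTR clusters for the comparison with the 3′UTR. The members and lists were chosen with earlier results of these data known, and the comparison of families with the 3′UTR and the 4-fold counts were added after the values had been seen. Genes were named by rule: the leading genes by reads overall and per library, the largest changes from e12.5 to adult, the leading members of each list, and miR-122-5p sites in at least 3 libraries. The 12 miRNAs of a list made earlier and the 10 with the most 5′UTR clusters were considered. Python 3.11.15, pandas 2.3.3, scipy 1.17.1, numpy 2.4.6, pysam 0.24.0 and matplotlib 3.10.9 were used. The depth of each library is that of its clusters; the sequencing totals in the study's supplement were not used here.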

Additional observations from a re-analysis of the deposited data

How the results depend on the processing

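Of the results that answer a comparison, 137 values under an alternative kept their direction and side of the threshold or stayed within 1.5 times of the count, 21 moved, 4 became stronger and 1 weaker, and none reversed. Values of single genes, gene lists and called families were counted apart. Of these, 60 stayed the same, 46 moved and 13 became weaker, the 13 being lost calls of families between e12.5 and adult. The number of families called between e12.5 and adult, 9, was 5 with at least 10 reads, 2 without 6mers, 2 with the first list of the embryonic tables, 5 with the second, 16 with every entry that names the 5′UTR and 1 with the 100 most abundant miRNAs. That 1 was miR-122-5p. Genes in all 5 libraries went from 223 to 132 without 6mers, 43 with the first list and 64 with the 100 most abundant miRNAs. The 13973 clusters became 8609 with the first list and 5305 with the 100 most abundant miRNAs. The 421 calls of families between 5′UTR and 3′UTR, summed over libraries, became 103, 182 and 90 without 6mers, with the first list and with the 100 most abundant miRNAs. The median log2 odds ratio of reads against the 3′UTR, −0.14 with 2 libraries called, was −0.21 with at least 10 reads, −0.22 with the first list, −0.17 with clusters of the 5′UTR alone and −0.23 with targets of at least 20 nt, with 3 called each. That of conservation, −0.59, was −0.024 with every entry that names the 5′UTR, with 2 called. On the longest transcript, 31.0%, 36.4%, 33.8%, 36.4% and 41.1% of positions lay within 50 nt of the start codon. In rpm of mRNA cluster reads, 241 genes were 4-fold or more higher in adult liver, against 140, and 56 lower, against 124. Fewer entries or clusters enter the stricter settings by construction. For the other moves the cause was not tested. Leaving out clusters on small RNA genes, the minimum target length the comparison of families between the 5′UTR and 3′UTR and its minimum from the 3′UTR share were chosen after seeing the data.

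No paired analysis was possible because the labels give each stage 1 library, and its replicate number names only that library. No replicate was left out, as each stage has 1 library, and a difference between stages cannot be told apart from one between single libraries. The tables list no cluster under 5 reads. The part of depth in the counts of genes and sites shared between libraries was not tested.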
